A study of Mus musculus with 4 samples.

Results

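The Hox genes encode homeodomain transcription factors that lie side by side in 4 chromosomal clusters, Hoxa, Hoxb, Hoxc and Hoxd. Of 22463 gene symbols listed in the RNA-Seq files, 38 Hox genes were described here. They were chosen by name, as transcripts whose RefSeq identifier maps to a Hox symbol, with earlier results of these data known. Where a gene had more than 1 listed transcript (Hoxa10 and Hoxb3), the transcript with the most reads over all libraries was kept. The 38 genes fell into 10 Hoxa, 10 Hoxb, 9 Hoxc and 9 Hoxd genes.

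The gene order along each cluster matches the order in which the genes are switched on along the head-to-tail axis of the embryo. Low-numbered genes are active towards the head and high-numbered genes towards the tail, and genes with the same number in different clusters are paralogues. Cultured cells keep much of the Hox pattern of the body region they came from, and fat depots differ in the Hox genes they express. The clusters are classical targets of Polycomb repression and of activation by the Trithorax group, to which the MLL methyltransferases belong. In the text, paralogues 1 to 3 are called anterior, 4 to 8 central and 9 to 13 posterior.

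The cells were immortalized mouse brown preadipocytes of strain C57BL/6J, taken from E18.5 embryos that were Mll3-/- and Mll4 f/f and immortalized with SV40T. Infection with adenoviral GFP (Ad-GFP) left Mll4 intact and gave Mll3-/- cells, which the labels call WT. Infection with adenoviral Cre (Ad-Cre) deleted Mll4 and gave Mll3-/- Mll4-/- cells, so all 4 libraries lacked Mll3 and an Mll3-expressing control was not analysed here. RNA was sequenced before induction (day 0) and after 2 days in an adipogenic mix of insulin, T3, indomethacin, dexamethasone and IBMX (day 2), with 1 library per condition.

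With no replicates, no difference between conditions could be tested. Each ratio is given with an exact (Clopper-Pearson) 95% interval that covers counting error only, and a ratio was called past the cutoff at 2.5-fold. Deposited counts summed to between 15831915 and 22099995 reads per library. The targeted gene, Mll4 (listed as Kmt2d, NM_001033276), had 6304 and 8530 reads at the 2 times after Ad-GFP, and 6316 and 5595 reads after Ad-Cre. These are reads on the whole transcript, of which the deleted exons are a small part, so they do not check the deletion and each library is called by its label. The labelled cell type was checked against markers. All 8 preadipocyte and mesenchymal markers were expressed in Ad-GFP cells, with summed levels of 2115 and 234 RPKM (reads scaled to exon length and to the mapped reads of the library) at day 0 and day 2. The sums were 1739 and 381 RPKM in Ad-Cre cells. Col1a1 was the largest part of the day 0 sums, at 1246.5 RPKM after Ad-GFP and 1010 RPKM after Ad-Cre. In Ad-Cre cells Ly6a was below 1 RPKM on both days (0.248 and 0.871 RPKM) and Cd34 at day 0 (0.352 RPKM). All 7 general adipocyte markers were expressed, reaching summed levels of 2105 RPKM in Ad-GFP cells and 514 RPKM in Ad-Cre cells at day 2. Of 7 brown adipocyte markers 3 were expressed, Ucp1 had at most 1 read and Cidea had 0. No endothelial, blood or epithelial marker was expressed, and Pax3 and Tubb3 were the only muscle and neural markers above 1 RPKM.

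Most Hox genes were transcribed in these cells. Under the study's definition of an expressed gene (above 1 RPKM at day 0 or day 2 after Ad-GFP), 25 of the 38 were expressed and 13 were not. By the same rule 11541 of all 22463 listed genes were expressed. Of the Hox genes, 19 were above 1 RPKM in all 4 libraries. The expressed genes were 8 of 10 Hoxa, 8 of 10 Hoxb, 8 of 9 Hoxc and 1 of 9 Hoxd genes. By position they were 4 of 7 anterior, 14 of 15 central and 7 of 16 posterior genes. The plot of levels by cluster shows lower levels at the tail ends of Hoxa and Hoxc than in their middle, whereas the posterior gene Hoxb9 was the highest of Hoxb at day 0. The central genes Hoxb5 (0.505 RPKM) and Hoxb7 (0.960 RPKM) were below 1 RPKM in Ad-GFP cells at day 2.

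**Figure D1:**
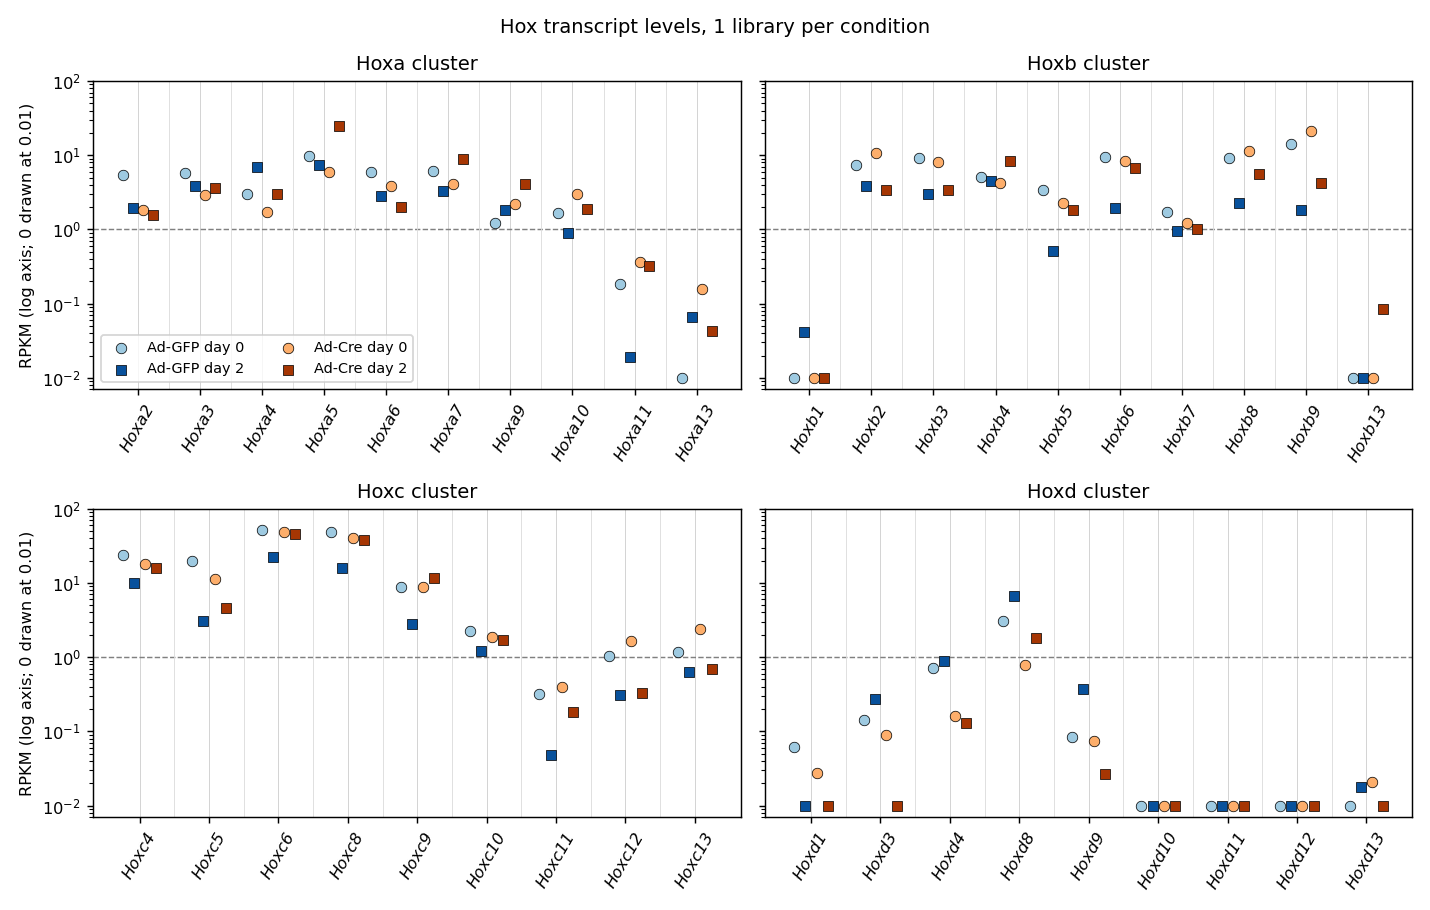
Level of each Hox gene in RPKM (log axis, values of 0 drawn at 0.01) in the 4 libraries, 1 panel per cluster, genes in paralogue order; the dashed line marks 1 RPKM. Hoxc6 and Hoxc8 reach the highest levels, 52.0 and 48.8 RPKM in Ad-GFP cells at day 0, and Hoxd8 is the only Hoxd gene above the line.

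Hoxc genes made up most of the Hox output. The 38 genes had a summed level of 260 RPKM (day 0) and 113 RPKM (day 2) after Ad-GFP, and of 228 and 205 RPKM in Ad-Cre cells. Of that sum Hoxc supplied 60.7% (day 0) and 50.2% (day 2) after Ad-GFP, against 58.6% and 57.6% after Ad-Cre. The Hoxa share was higher at day 2 than at day 0, at 25.6% against 14.9% after Ad-GFP and 24.5% against 11.4% after Ad-Cre. The Hoxb share was lower, at 16.9% against 22.9% and at 16.9% against 29.5%. In both cell states the summed Hoxb level was thus lower at day 2, whereas the summed Hoxa level was lower at day 2 in Ad-GFP cells (38.7 and 28.8 RPKM) and higher in Ad-Cre cells (26.0 and 50.2 RPKM). The Hoxd share stayed under 8% in every library and was 7.31% at its highest, in Ad-GFP cells at day 2.

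**Figure D2:**
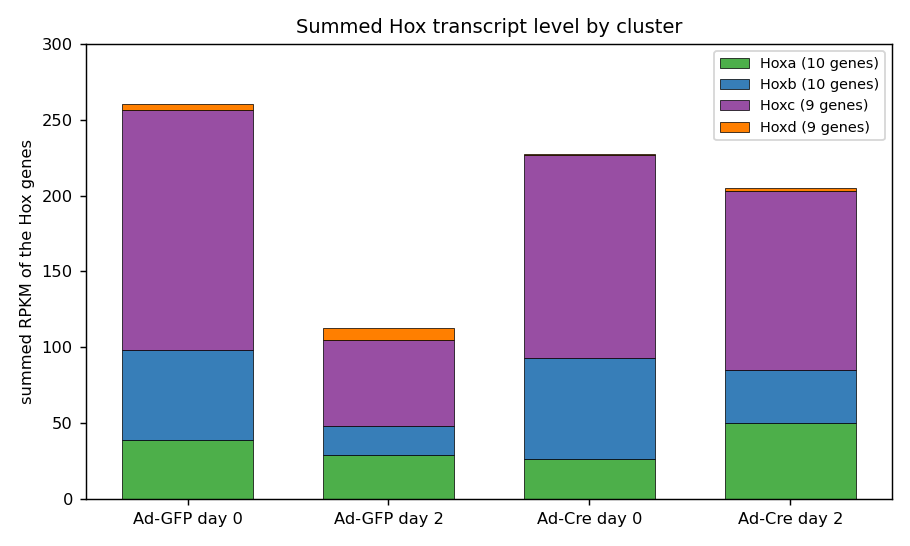
Summed level of the Hox genes in RPKM for the 4 libraries, stacked by cluster. The bar of Ad-GFP cells at day 2 (113 RPKM) is the lowest and that of Ad-GFP cells at day 0 (260 RPKM) the highest, and Hoxc is the largest part of every bar.

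The Hoxc cluster lies on chromosome 15, on the plus strand (positions are of build NCBI37/mm9). Hoxc6 (chr15:102828688-102842312), which patterns the thoracic region, was the most abundant Hox transcript by mean level over the libraries. It stood at 52.0 RPKM (1425 reads) at day 0 and 22.4 RPKM (818 reads) at day 2 in Ad-GFP cells, and at 48.2 RPKM (1497 reads) and 45.6 RPKM (1309 reads) in Ad-Cre cells. The Ad-GFP library at day 2 was the low one, and the other three lay close together. Hoxc8 (chr15:102821053-102824698), a thoracic patterning gene also known to restrain brown fat formation from white fat progenitors, had the same layout. Its level was 48.8 RPKM (1987 reads) and 16.1 RPKM (879 reads) in Ad-GFP cells and 40.7 RPKM (1880 reads) and 37.6 RPKM (1605 reads) in Ad-Cre cells. From day 0 to day 2 Hoxc8 differed by a log2 ratio of -1.60 (95% interval -1.71 to -1.48) in Ad-GFP cells and -0.11 (-0.21 to -0.02) in Ad-Cre cells. For Hoxc6 the same ratios were -1.22 (-1.35 to -1.09) and -0.08 (-0.19 to 0.03).

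Hoxc4, at the head end of the cluster, stood at 23.7 RPKM (809 reads) and 10.0 RPKM (457 reads) in Ad-GFP cells and at 18.1 RPKM (702 reads) and 15.9 RPKM (569 reads) in Ad-Cre cells. Its neighbour Hoxc5 was lower at day 2 in both cell states. Its day 0 and day 2 levels were 20 RPKM (940 reads) and 3.11 RPKM (195 reads) after Ad-GFP, against 11.4 RPKM (605 reads) and 4.53 RPKM (223 reads) after Ad-Cre, log2 ratios of -2.69 (-2.92 to -2.46) and -1.33 (-1.55 to -1.10). Hoxc9, a posterior gene that marks thoracic level in motor neurons, was near equal at day 0, at 8.76 RPKM (259 reads) in Ad-GFP cells and 8.74 RPKM (293 reads) in Ad-Cre cells. At day 2 it was at 2.78 RPKM (110 reads) in Ad-GFP cells and 11.6 RPKM (361 reads) in Ad-Cre cells, below and above their day 0 levels. The Ad-Cre day ratio of Hoxc9 (0.41) was 0.02 with the trend over transcript length removed and -0.09 with the trends over length and GC content removed. The Ad-Cre to Ad-GFP ratio of Hoxc9 at day 2 was 2.06 on the log2 scale (1.75 to 2.39), the highest of any expressed Hox gene.

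Further towards the tail, levels were lower. Hoxc10 stood at 2.22 RPKM (73 reads) and 1.23 RPKM (54 reads) in Ad-GFP cells and at 1.88 RPKM (70 reads) and 1.71 RPKM (59 reads) in Ad-Cre cells. Hoxc13, best known for its role in hair follicles and nails, stood at 1.17 RPKM (49 reads) and 0.626 RPKM (35 reads) in Ad-GFP cells and at 2.36 RPKM (112 reads) and 0.684 RPKM (30 reads) in Ad-Cre cells. For Hoxc13 the day 0 library of Ad-Cre cells stood out as the high one. Hoxc12 had 15 and 6 reads after Ad-GFP, against 27 and 5 after Ad-Cre. Hoxc11 had at most 7 reads.

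The Hoxb cluster lies on chromosome 11, on the plus strand. Its expressed gene nearest the tail end, Hoxb9, was the most abundant of the cluster at day 0 and the most reduced at day 2. Hoxb9 (chr11:96132771-96137909), which patterns the rib cage, stood at 14.2 RPKM (657 reads) and 1.84 RPKM (114 reads) in Ad-GFP cells and at 21.0 RPKM (1104 reads) and 4.23 RPKM (206 reads) in Ad-Cre cells. Both day 2 libraries were below both day 0 libraries, with log2 ratios of -2.95 (-3.25 to -2.66) in Ad-GFP cells and -2.31 (-2.53 to -2.09) in Ad-Cre cells. Hoxb8, known from myeloid progenitors, stood at 9.06 RPKM (412 reads) and 2.29 RPKM (139 reads) in Ad-GFP cells and at 11.3 RPKM (583 reads) and 5.56 RPKM (265 reads) in Ad-Cre cells. The 4 libraries of Hoxb8 followed the order of Hoxb9, with the Ad-Cre library above the Ad-GFP library on each day. Of the exonic bases of Hoxb8, 40.4% overlap some transcript of Hoxb7 in the annotation used (GENCODE). The counted Hoxb7 transcript, of 1269 bases, was low, with 37 and 28 reads after Ad-GFP and 30 and 23 after Ad-Cre. Whether it covers the overlapping stretch was not checked, so its reads do not tell how many Hoxb8 reads are shared.

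Hoxb6 and Hoxb5 had the lowest day ratios of the cluster in Ad-GFP cells after Hoxb9. Hoxb6 stood at 9.32 RPKM (212 reads) and 1.94 RPKM (59 reads) in Ad-GFP cells and at 8.30 RPKM (214 reads) and 6.80 RPKM (162 reads) in Ad-Cre cells. Hoxb5 stood at 3.40 RPKM (111 reads) and 0.505 RPKM (22 reads) in Ad-GFP cells and at 2.30 RPKM (85 reads) and 1.81 RPKM (62 reads) in Ad-Cre cells. In each of these genes the Ad-GFP library at day 2 was alone at the bottom. Their day ratios were -2.26 (-2.71 to -1.84) and -2.75 (-3.48 to -2.08) in Ad-GFP cells, and -0.29 (-0.59 to 0.01) and -0.34 (-0.84 to 0.15) in Ad-Cre cells.

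Hoxb4, known for expanding blood stem cells, was the only expressed Hoxb gene that was higher at day 2 in Ad-Cre cells. It stood at 5.14 RPKM (227 reads) and 4.56 RPKM (269 reads) in Ad-GFP cells and at 4.27 RPKM (214 reads) and 8.45 RPKM (391 reads) in Ad-Cre cells. The hindbrain genes Hoxb2 and Hoxb3 were lower at day 2 in both. Hoxb3 stood at 9.28 RPKM (529 reads) and 3.01 RPKM (229 reads) in Ad-GFP cells and at 8.21 RPKM (531 reads) and 3.38 RPKM (202 reads) in Ad-Cre cells. Hoxb2 stood at 7.42 RPKM (208 reads) and 3.90 RPKM (146 reads) in Ad-GFP cells and at 10.6 RPKM (338 reads) and 3.37 RPKM (99 reads) in Ad-Cre cells. For both genes the libraries of the same day resembled each other more than those of the same cell state. In GENCODE, 58.6% (Hoxb3) and 49.4% (Hoxb2) of the exonic bases of the transcript nearest in length overlap the antisense gene Hoxb3os. Those transcripts are unlike the counted ones, with 1945 against 3313 bases for Hoxb3 and 3304 against 1629 for Hoxb2. The overlapping share of the counted bases was therefore not measured. Since the counting is not stated to use strand, sense and antisense reads cannot be told apart in any overlapping stretch. Hoxb1 and Hoxb13, at the ends of the cluster, had at most 2 reads in any library.

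The Hoxa cluster lies on chromosome 6, on the minus strand. Its genes differed in direction among themselves. Hoxa5 (chr6:52151753-52154586), required for lung and airway development and long known as a depot-dependent gene of fat, stood at 9.63 RPKM (311 reads) and 7.35 RPKM (317 reads) in Ad-GFP cells. In Ad-Cre cells it stood at 5.87 RPKM (215 reads) and 24.6 RPKM (834 reads), so the Ad-Cre library at day 2 was the high one by a wide margin. The day ratio of Hoxa5 was -0.39 (-0.62 to -0.16) in Ad-GFP cells and 2.07 (1.85 to 2.29) in Ad-Cre cells. Hoxa7 (chr6:52164490-52171853), a thoracic patterning gene, stood at 6.08 RPKM (204 reads) and 3.30 RPKM (148 reads) in Ad-GFP cells and at 4.12 RPKM (157 reads) and 8.93 RPKM (314 reads) in Ad-Cre cells. Its day ratios were -0.88 (-1.20 to -0.57) and 1.11 (0.83 to 1.40), again on opposite sides of equal. Of the exonic bases of Hoxa7, 28.8% overlap some GENCODE transcript of the antisense RNA Hoxaas3 (2700086A05Rik). For Hoxa3 the overlap with this RNA was 14.2%, on a GENCODE transcript of 2085 bases against 2543 counted. The counted Hoxaas3 transcript had at most 17 reads in any library. Whether it covers the overlapping stretches was not checked.

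Hoxa2, which patterns the hindbrain and the second pharyngeal arch, was highest in Ad-GFP cells at day 0. It stood there at 5.36 RPKM (155 reads), against 1.92 RPKM (74 reads) at day 2, and at 1.83 RPKM (60 reads) and 1.58 RPKM (48 reads) in Ad-Cre cells. The other three libraries of Hoxa2 lay within counting error of each other in the 2 comparisons made among them. Hoxa3, needed for thymus and parathyroid formation, stood at 5.72 RPKM (250 reads) and 3.81 RPKM (223 reads) in Ad-GFP cells and at 2.88 RPKM (143 reads) and 3.64 RPKM (167 reads) in Ad-Cre cells. Hoxa6 was lower at day 2 in both cell states, at 5.91 RPKM (71 reads) and 2.80 RPKM (45 reads) in Ad-GFP cells and 3.81 RPKM (52 reads) and 1.98 RPKM (25 reads) in Ad-Cre cells. Hoxa4 went the other way. It stood at 2.97 RPKM (78 reads) and 6.86 RPKM (241 reads) in Ad-GFP cells and at 1.74 RPKM (52 reads) and 3.05 RPKM (84 reads) in Ad-Cre cells, with the higher value at day 2 each time.

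The posterior genes Hoxa9 and Hoxa10, both known from blood formation, had the higher level in Ad-Cre cells on each day. Hoxa9 stood at 1.23 RPKM (48 reads) and 1.82 RPKM (95 reads) in Ad-GFP cells and at 2.19 RPKM (97 reads) and 4.13 RPKM (169 reads) in Ad-Cre cells. Hoxa10 stood at 1.65 RPKM (73 reads) and 0.882 RPKM (52 reads) in Ad-GFP cells and at 3.04 RPKM (152 reads) and 1.86 RPKM (86 reads) in Ad-Cre cells. Thus Hoxa9 was higher and Hoxa10 lower at day 2, although they are neighbours. Hoxa11 and Hoxa13 had at most 16 and 4 reads.

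The Hoxd cluster, on chromosome 2 and on the plus strand, was nearly silent apart from its middle. Hoxd8 (chr2:74542672-74545990) stood at 3.06 RPKM (75 reads) and 6.69 RPKM (219 reads) in Ad-GFP cells and at 0.792 RPKM (22 reads) and 1.83 RPKM (47 reads) in Ad-Cre cells. It was thus higher at day 2 in both cell states and lower in the Ad-Cre library on each day. Hoxd4 followed the second of these differences at a lower level, with 0.704 RPKM (31 reads) and 0.884 RPKM (52 reads) in Ad-GFP cells and 0.160 RPKM (8 reads) and 0.130 RPKM (6 reads) in Ad-Cre cells. Its Ad-Cre to Ad-GFP ratios were -2.14 (-3.47 to -0.98) at day 0 and -2.77 (-4.28 to -1.55) at day 2 on the log2 scale. Of the exonic bases of Hoxd4, 67.4% overlap some GENCODE transcript of Hoxd3. The counted Hoxd3 transcript had 7 and 18 reads after Ad-GFP and 5 and 0 after Ad-Cre. Whether it covers the overlapping stretch was not checked, so its reads do not tell how many Hoxd4 reads are shared. Hoxd9 had 3 and 18 reads after Ad-GFP and 3 and 1 after Ad-Cre. Hoxd10, Hoxd11 and Hoxd12 had 0 reads in all 4 libraries, which on a transcript of 1 kb allows a level of up to 0.131 to 0.174 RPKM depending on the library (3 reads). Hoxd1 and Hoxd13 had at most 2 reads.

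The promoters of the genes whose Ad-Cre and Ad-GFP values lay furthest apart at day 2 in the Hoxa cluster, and of Hoxd8, are shown to compare their CpG content. Each line is the 250 bases before the RefSeq start (sequence from the RefSeq table of GRCm38.p6, placed by an exact match on NCBI37/mm9), 5′ to 3′ on the strand of the gene, with each CG dinucleotide in capitals. Hoxa5 is at chr6:52154587-52154836 on the minus strand, Hoxa7 at chr6:52168573-52168822 on the minus strand and Hoxd8 at chr2:74542422-74542671 on the plus strand.
Hoxa5: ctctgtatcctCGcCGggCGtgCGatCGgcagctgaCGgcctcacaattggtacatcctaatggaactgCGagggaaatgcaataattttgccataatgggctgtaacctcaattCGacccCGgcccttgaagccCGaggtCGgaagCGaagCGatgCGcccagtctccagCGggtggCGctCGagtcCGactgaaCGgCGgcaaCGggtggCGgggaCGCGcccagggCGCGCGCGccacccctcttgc
Hoxa7: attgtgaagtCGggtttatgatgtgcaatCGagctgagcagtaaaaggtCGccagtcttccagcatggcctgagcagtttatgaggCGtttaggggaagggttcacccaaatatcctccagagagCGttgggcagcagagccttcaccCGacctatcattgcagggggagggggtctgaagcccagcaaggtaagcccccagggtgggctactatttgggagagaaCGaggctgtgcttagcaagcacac
Hoxd8: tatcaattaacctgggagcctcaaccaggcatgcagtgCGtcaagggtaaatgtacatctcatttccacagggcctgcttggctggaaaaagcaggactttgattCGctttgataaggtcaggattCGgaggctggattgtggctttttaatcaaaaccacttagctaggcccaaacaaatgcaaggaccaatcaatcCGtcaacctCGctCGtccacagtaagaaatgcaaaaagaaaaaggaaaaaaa
The Hoxa5 promoter held 28 CG dinucleotides, that of Hoxa7 7 and that of Hoxd8 6. The table held promoters for 22 of the 38 Hox genes, with 2 to 35 CG dinucleotides and a median of 12. Over 27025 promoters of the same length the median was 6. The 22 were mostly Hoxa and Hoxd genes. Every Hoxd gene was among them, but only Hoxc4 of Hoxc and only Hoxb1, Hoxb4 and Hoxb8 of Hoxb. The shares below therefore say little of the Hoxb and Hoxc promoters. Searched on both strands, the letters CCAAT were in 59.1% of these 22 Hox promoters and 34.5% of all promoters. TGATNNAT, the letters of a Pbx-Hox composite site, were in 13.6% and 7.91%, and TATAAA in 13.6% and 13%. AGGTCA repeated after a gap of 5 bases, a retinoic acid receptor motif, and TTGCGCAA, a C/EBP motif, were in 0 of the 22 Hox promoters and in 0.0074% and 0.170% of all promoters.

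In control cells, Hox transcripts were lower at day 2 of adipogenesis than before it. Of the 25 expressed Hox genes, 10 were over 2.5-fold lower at day 2 in Ad-GFP cells (background 12.7% of 11541 expressed genes) and 0 were over 2.5-fold higher (background 8.38%). The 10 genes were Hoxa2, Hoxb3, Hoxb5, Hoxb6, Hoxb8, Hoxb9, Hoxc5, Hoxc8, Hoxc9 and Hoxc12. The ratio was below equal for 22 of 25 Hox genes and for 4982 of 11541 expressed genes. The Hox exceptions were Hoxa4 (1.21, 0.83 to 1.60), Hoxa9 (0.57, 0.05 to 1.10) and Hoxd8 (1.13, 0.74 to 1.53). The median log2 ratio was -1.08 over the Hox genes and 0.15 over all expressed genes, a gap of -1.22. By cluster it was -0.73 for Hoxa, -1.81 for Hoxb and -1.42 for Hoxc, and all 8 expressed genes of Hoxb and of Hoxc were below equal. By position it was -1.21 for anterior, -1.15 for central and -0.91 for posterior genes.

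In Ad-Cre cells the values at day 2 were closer to day 0, and some Hox genes were higher. In Ad-Cre cells 5 of the 25 genes (Hoxb2, Hoxb9, Hoxc5, Hoxc12 and Hoxc13) were over 2.5-fold lower at day 2 (background 10.0%) and 1, Hoxa5, was over 2.5-fold higher (background 8.66%). With library totals taken as the sum of the deposited counts, the split was 4 lower and 2 higher. The median was -0.21 over the Hox genes and -0.01 over all expressed genes. By cluster it was 0.57 for Hoxa, -0.68 for Hoxb and -0.16 for Hoxc. The value of -0.01 pooled transcripts of all lengths. In Ad-Cre cells the median over expressed genes ran from 0.64 in the shortest of 5 length classes to -0.53 in the longest. In Ad-GFP cells those classes were at 0.12 and 0.15. The shortest class and the next one (0.24 in Ad-Cre cells) held 5 and 11 of the 25 Hox genes. The ratio was above equal for 8 of the 25 Hox genes and for 5694 of 11541 expressed genes. The 8 were Hoxa3, Hoxa4, Hoxa5, Hoxa7, Hoxa9, Hoxb4, Hoxc9 and Hoxd8. With the sum of counts as library total Hoxc6, Hoxc8 and Hoxc10 joined them, while with the length and GC trends removed Hoxc9 left them. Hoxd8 was higher at day 2 by much the same ratio as in Ad-GFP cells, 1.21 (0.45 to 2.01).

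The difference between the day ratios (Ad-Cre minus Ad-GFP, log2) was above 0 for 21 of the 25 expressed Hox genes (background 45.9%). The median difference was 0.92 over the Hox genes and -0.11 over 11438 expressed genes. By an approximate 95% counting interval the difference lay above 0 for 16 Hox genes, below 0 for 2 (Hoxb2 and Hoxc13), and the interval held 0 for 7. That split was not computed over all expressed genes, so it has no background. Values ran up to 2.46 (2.15 to 2.77) for Hoxa5 and 2.41 (1.60 to 3.22) for Hoxb5. Hoxc9 (2.07, 1.68 to 2.46), Hoxa7 (2.00, 1.58 to 2.41), Hoxb6 (1.98, 1.47 to 2.49) and Hoxc8 (1.48, 1.33 to 1.63) came next. At the other end stood Hoxc13 (-0.88, -1.74 to -0.03) and Hoxb2 (-0.73, -1.17 to -0.28). For Hoxa6 (0.13, -0.74 to 1.01), Hoxa10 (0.20, -0.44 to 0.84) and Hoxd8 (0.08, -0.74 to 0.90) the interval held 0. Removing the trends of the ratios over transcript length and GC content left 17 Hox genes above 0 and 8 below, where 51.1% of all 11438 genes were above 0. Without replicates, variation between cultures is not in these intervals.

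**Figure D3:**
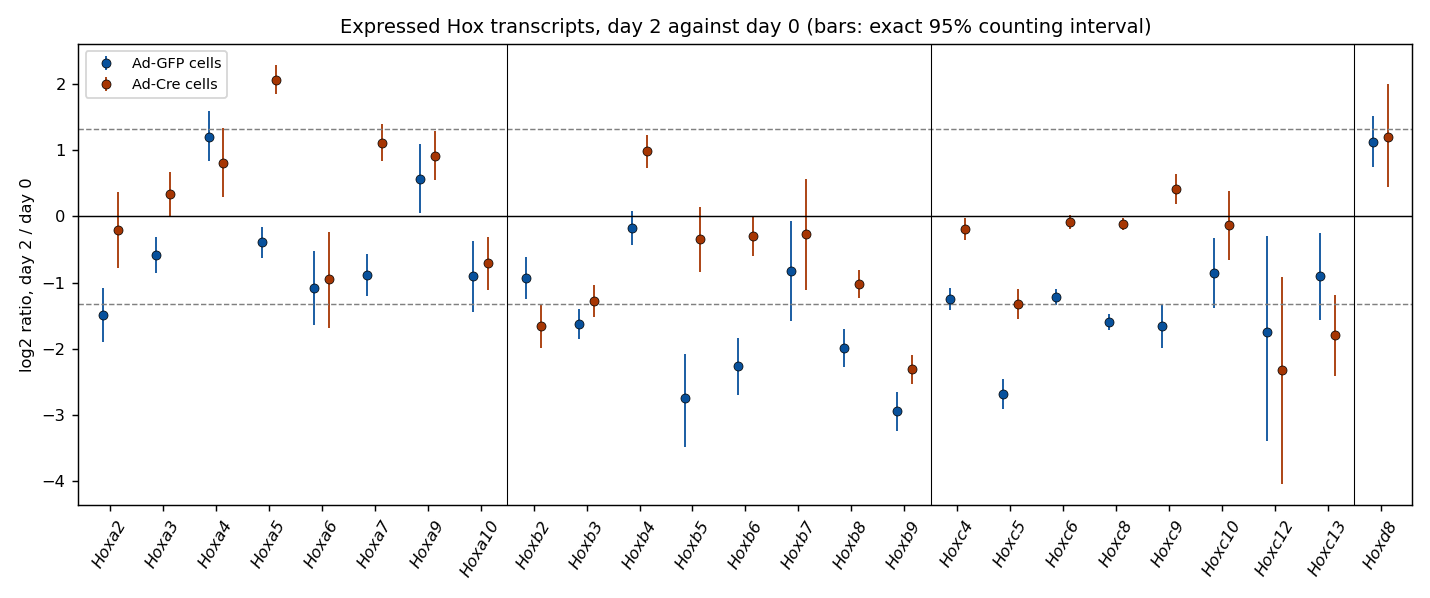
log2 ratio of day 2 to day 0 for the 25 expressed Hox genes in Ad-GFP cells (blue) and Ad-Cre cells (brown), in cluster order with vertical lines between clusters; bars are exact 95% counting intervals and dashed lines mark 2.5-fold. Hoxa5 (-0.39 and 2.07) and Hoxc9 (-1.65 and 0.41) show Ad-GFP and Ad-Cre values on opposite sides of 0 (for Hoxc9 not after removal of the length and GC trends, where the Ad-Cre value was -0.09), while Hoxb9 is low in both (-2.95 and -2.31).

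Before differentiation, few Hox genes differed by a large ratio between Ad-Cre and Ad-GFP cells. At day 0, 2 of the 25 expressed genes, Hoxa2 and Hoxd8, had an Ad-Cre level over 2.5-fold below the Ad-GFP level (background 4.12%) and 0 were over 2.5-fold higher (background 1.27%). Hoxa2 had a log2 ratio of -1.55 (-2.01 to -1.11) and Hoxd8 of -1.95 (-2.71 to -1.25). For each of them the interval reached inside the cutoff. The median was -0.26 over the Hox genes and -0.02 over all expressed genes. Of all 11541 expressed genes, 6043 were below equal and 5487 above. By position, 3 of 4 anterior genes (median -0.58) and 13 of 14 central genes (median -0.52, the exception Hoxb8) were below equal, and 5 of 7 posterior genes were above (median 0.67). The posterior genes above equal were Hoxa9 (0.83, 0.32 to 1.36), Hoxa10 (0.88, 0.46 to 1.30), Hoxb9 (0.57, 0.43 to 0.71), Hoxc12 (0.67, -0.30 to 1.68) and Hoxc13 (1.01, 0.51 to 1.53). Hoxc9 was near equal (-0.004, -0.25 to 0.24) and changed sign with TMM scaling or removal of the length trend, and Hoxc10 had a value of -0.24 (-0.74 to 0.25). Preadipocyte markers also differed between the day 0 libraries: 4 of 8 (Pdgfra, Dlk1, Ly6a and Cd34) were over 2.5-fold lower after Ad-Cre and 0 higher, with a median log2 ratio of -1.81 over the list. Their part in the Hox values was not tested.

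At day 2 most Hox genes were higher in Ad-Cre cells. Of the 25 expressed genes, 5 had an Ad-Cre level over 2.5-fold above the Ad-GFP level (background 8.14%) and 1, Hoxd8, one over 2.5-fold below (background 10.1%). The 5 were Hoxc9 (2.06, 1.75 to 2.39), Hoxb5 (1.85, 1.12 to 2.62), Hoxb6 (1.81, 1.37 to 2.26), Hoxa5 (1.75, 1.56 to 1.94) and Hoxa7 (1.44, 1.15 to 1.73). With other scalings the count of higher genes was 8 (sum of counts) or 9 (TMM), since Hoxb8 (1.28), Hoxc8 (1.22), Hoxb9 (1.20) and Hoxa9 (1.18) lay just inside the cutoff. The ratio was above equal for 19 of 25 Hox genes and for 4940 of 11541 expressed genes, with a median of 0.67 over the Hox genes and -0.16 over all expressed genes, a gap of 0.83. All 8 expressed Hoxc genes and all 7 posterior genes were above equal, Hoxc12 among them on 5 against 6 reads (0.09, -1.96 to 2.06) and below equal with either trend correction. Those below were Hoxa2, Hoxa3, Hoxa4, Hoxa6, Hoxb2 and Hoxd8, led by Hoxd8 (-1.87, -2.36 to -1.41) and Hoxa4 (-1.17, -1.55 to -0.81). With TMM, the sum of counts or the length trend removed, Hoxa3 (-0.07) was above equal. Removing the length trend put Hoxb7 and Hoxc12 below equal (18 above and 7 below in all), and removing the length and GC trends put Hoxb3, Hoxb7 and Hoxc12 below (16 above and 9 below).

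These comparisons share libraries: the Ad-GFP library at day 2, in which most Hox genes were at their lowest, entered both the day ratio of Ad-GFP cells and the ratio between cell states at day 2. Other measures moved with that comparison. At day 2 all 7 adipocyte markers were over 2.5-fold lower after Ad-Cre (median log2 ratio -2.17). In bulk RNA, fewer cells expressing a gene and less of its RNA per cell cannot be told apart. The median ratio of all expressed genes at day 2 also ran with transcript length, from 0.38 in the shortest of 5 length classes of genes to -0.68 in the longest, and 24 of the 25 Hox genes lay in the 3 shorter classes. After removal of that trend, 8 Hox genes were over 2.5-fold higher and 2 (Hoxa4 and Hoxd8) lower. The part of the adipocyte marker difference in the Hox values was not tested.

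**Figure D4:**
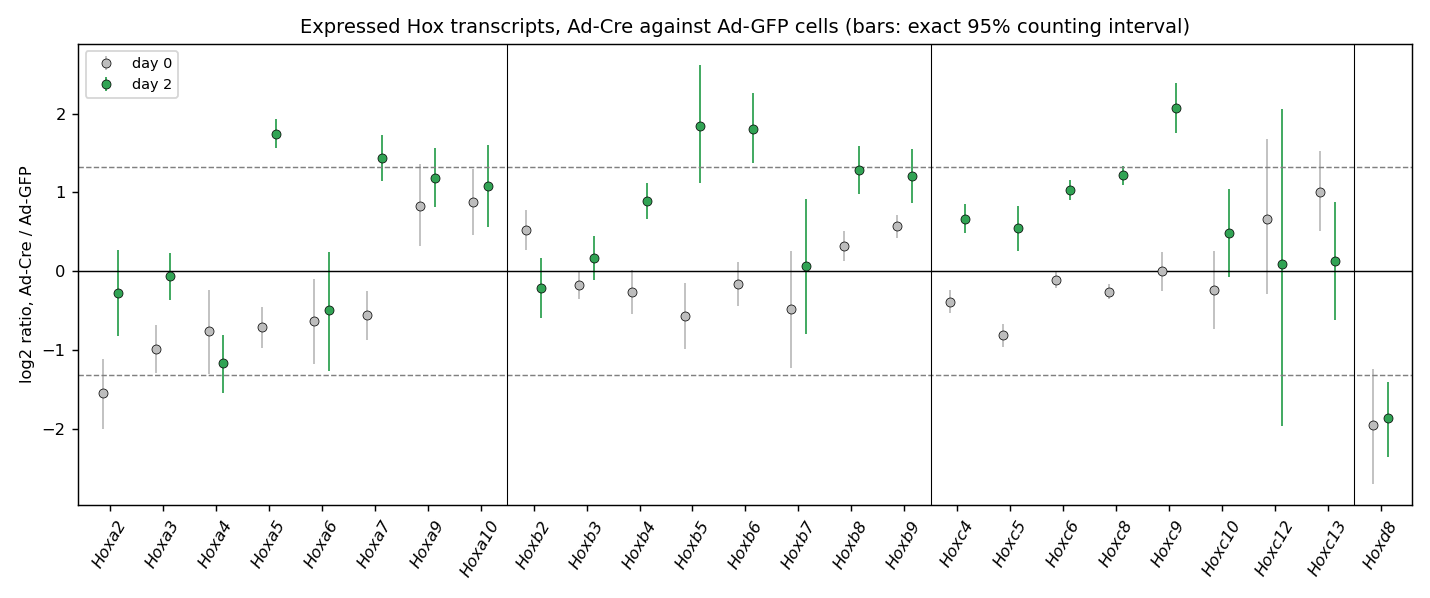
Ad-Cre level over Ad-GFP level, as a log2 ratio, for the 25 expressed Hox genes at day 0 (grey) and day 2 (green), in cluster order; bars are exact 95% counting intervals and dashed lines mark 2.5-fold. Grey points of most central genes lie below 0 and green points of all Hoxc genes above 0, while Hoxd8 is low at both times (-1.95 and -1.87).

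The clusters also encode miR-196, a microRNA known to bind Hox mRNAs, whose seed is shared by its copies in the Hoxa cluster (miR-196b) and in the Hoxb and Hoxc clusters (miR-196a). The mature sequences (RefSeq, GRCm38.p6) are shown with the seed, bases 2 to 8, in capitals. They are followed by sites in the 3′ ends of Hoxa7 and Hoxc8 (NCBI37/mm9), 5′ to 3′ on the gene's strand, with each base that faces its Watson-Crick partner in an ungapped alignment to miR-196a-5p in capitals.
miR-196a-5p: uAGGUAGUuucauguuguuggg
miR-196b-5p: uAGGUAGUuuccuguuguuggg
Hoxa7 site at chr6:52165399-52165420: ggCAcagcCAaaAtACTACCTA
Hoxa7 site at chr6:52165209-52165230: aCtActAgCcctAAACTACCTA
Hoxc8 site at chr15:102824164-102824185: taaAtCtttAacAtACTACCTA
Each site ends in the seed match ACTACCT, followed by 1 more base. The match was in the annotated 3′ untranslated region of 8 of the 38 Hox genes, against 5.72% of 19915 genes. Hoxa7 held 4 matches, Hoxc8 held 3, and Hoxa4, Hoxa5, Hoxa9, Hoxb1, Hoxb6 and Hoxb7 held 1 each. Only exact seed matches were searched, so sites with a mismatch or a G:U pair in the seed were missed. A Hox gene absent from this list can still hold such a site. Reads of the Mir196a-1 gene, which lies next to Hoxb9, numbered 14 and 4 after Ad-GFP and 16 and 24 after Ad-Cre. These reads come from longer RNA over the gene and do not measure the mature microRNA. Mir196a-2 had 0 reads, and Mir196b had at most 1.

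Of 11 other RNAs of the Hox clusters that were listed, 5 were expressed. In Ad-GFP cells 4 were over 2.5-fold lower at day 2 and 0 higher, and in Ad-Cre cells 2 were lower and 0 higher, beside the backgrounds of 12.7% and 10.0% lower over all expressed genes. These counts rest on few reads: Mir615 had 3 at day 0 and 0 at day 2 in both cell states, and Hoxaas3 17 and 6 after Ad-GFP. Mira, an RNA encoded between Hoxa6 and Hoxa7, stood at 11.3 RPKM (155 reads) and 6.65 RPKM (122 reads) in Ad-GFP cells and at 8.41 RPKM (131 reads) and 13.8 RPKM (199 reads) in Ad-Cre cells. As for Hoxa7, its day ratios lay on opposite sides of equal, at -0.76 (-1.12 to -0.41) and 0.72 (0.39 to 1.05). Gm53, a long RNA upstream of Hoxb9, had 50 and 16 reads after Ad-GFP and 137 and 50 after Ad-Cre, lower at day 2 in both as Hoxb9 was. Of 10 expressed genes that flank the clusters, 1 was over 2.5-fold lower and 1 higher at day 2 in Ad-GFP cells (backgrounds 12.7% and 8.38%). Their median was 0.34. At day 2 the Ad-Cre level was over 2.5-fold lower for 2 (Hibadh and Snx10) and higher for 0 (backgrounds 10.1% and 8.14%), with a median of -0.91. Hibadh, near Hoxa, stood at 11.5 and 47.3 RPKM in Ad-GFP cells and 13 and 18.8 RPKM in Ad-Cre cells, and Evx1 and Evx2, the homeobox genes at the ends of Hoxa and Hoxd, had 0 reads. Cbx5 and Calcoco1, near Hoxc, had log2 day ratios of 0.28 and 0.38 after Ad-GFP, against -0.72 and 1.29 after Ad-Cre. Jazf1 was over 2.5-fold lower at day 2 in both cell states, and Snx10 in Ad-Cre cells.

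The TALE homeodomain proteins (Pbx, Meis and Pknox), which bind DNA together with Hox proteins, were expressed in 8 of 8 cases described here. In Ad-GFP cells 4 were over 2.5-fold lower at day 2 (background 12.7%) and 0 higher (background 8.38%), with a median of -1.20. Among the 4, Pbx4 rested on 26 and 6 reads. In Ad-Cre cells 0 passed the cutoff (backgrounds 10.0% lower and 8.66% higher), with a median of 0.23. Meis1 stood at 20.9 RPKM (1234 reads) and 8.13 RPKM (643 reads) in Ad-GFP cells and at 13.5 RPKM (907 reads) and 15.5 RPKM (961 reads) in Ad-Cre cells. The Ad-GFP library at day 2 was the low one, as for Hoxc6 and Hoxc8. Meis2 stood at 10.0 RPKM (815 reads) and 4.87 RPKM (530 reads) in Ad-GFP cells and at 6.10 RPKM (564 reads) and 7.94 RPKM (678 reads) in Ad-Cre cells. Meis3 stood at 6.24 RPKM (191 reads) and 1.42 RPKM (58 reads) in Ad-GFP cells and at 5.41 RPKM (188 reads) and 4.89 RPKM (157 reads) in Ad-Cre cells. Pbx2 was an exception, at 22.5 and 26.5 RPKM in Ad-GFP cells and 16.5 and 28.5 RPKM in Ad-Cre cells. Between cell states, 1 (Pknox2, -2.54) was lower in Ad-Cre cells at day 0 (background 4.12%), and 2 (Pbx4 and Meis3) were higher at day 2 (background 8.14%).

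Among regulators of the clusters, the Polycomb group, which holds Hox genes silent, was expressed in all 28 genes listed. In Ad-GFP cells 1 was over 2.5-fold lower (background 12.7%) and 3 higher (background 8.38%) at day 2, with a median of 0.03. Between cell states 0 passed the cutoff at day 0 (backgrounds 4.12% lower and 1.27% higher). Rbbp4, a histone-binding subunit, stood at 40.2 and 49.6 RPKM in Ad-GFP cells and 35.5 and 39 RPKM in Ad-Cre cells, and Phc2 at 58.9 and 41.8 RPKM and at 73.5 and 58.6 RPKM. These abundant members stayed within 2.5-fold throughout. Jarid2, which recruits the complex that methylates H3K27, was higher at day 2 mainly in Ad-GFP cells, at 3.96 and 14.2 RPKM against 3.68 and 4.64 RPKM in Ad-Cre cells. Phf19 was lower at day 2 mainly in Ad-GFP cells, at 7.10 and 2.28 RPKM against 7.24 and 6.27 RPKM. Cbx6 stood at 72.7 and 46.5 RPKM in Ad-GFP cells and at 56.2 and 210 RPKM in Ad-Cre cells, so it was the Ad-Cre library at day 2 that was high. In Ad-Cre cells Ring1 was also higher at day 2 (log2 ratio 1.76, 1.61 to 1.91) and Pcgf3 lower (-1.71, -1.87 to -1.56). At day 2 the Ad-Cre level was over 2.5-fold lower for 2 Polycomb genes (background 10.1%) and higher for 2 (background 8.14%).

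A list of Trithorax group genes, H3K27 demethylases that counter Polycomb and other chromatin regulators such as Dot1l was also expressed throughout (13 of 13 found). In Ad-GFP cells 1 gene, Dot1l, was over 2.5-fold higher at day 2 (background 8.38%), at 15.2 and 47.6 RPKM. In Ad-Cre cells it stood at 22.6 and 15.2 RPKM. Dot1l and Kdm6a had day 2 levels over 2.5-fold lower after Ad-Cre (background 10.1%), at log2 ratios of -1.64 (-1.73 to -1.56) and -1.33 (-1.51 to -1.16). Men1, whose product menin is a partner of MLL family complexes, stood at 38.7 and 30.1 RPKM in Ad-GFP cells and 50.5 and 49.4 RPKM in Ad-Cre cells. Kmt2b, a methyltransferase gene of the MLL family, stood at 12.4 and 17.8 RPKM in Ad-GFP cells and 13.1 and 15.7 RPKM in Ad-Cre cells.

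Retinoic acid and Cdx factors are the classical activators of Hox genes in the embryo. Cdx1, Cdx2 and Cdx4 had 0 reads in all 4 libraries, and of 15 genes listed for these inputs 6 were expressed. The receptor gene Rarg was over 2.5-fold lower at day 2 in Ad-GFP cells, at 40.1 RPKM (2014 reads) and 9.17 RPKM (615 reads), and stood at 32.5 RPKM (1848 reads) and 21.9 RPKM (1153 reads) in Ad-Cre cells. Rxra was higher at day 2 in both, at 36.3 and 146 RPKM in Ad-GFP cells and 23.6 and 65.4 RPKM in Ad-Cre cells, as was Rxrb, at 23.8 and 44.4 RPKM and at 22.2 and 64.5 RPKM. Cyp26b1, which degrades retinoic acid, was the gene of this list over 2.5-fold higher in Ad-Cre cells at day 0, at 2.08 RPKM (193 reads) against 0.649 RPKM (53 reads).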

How the data were processed

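RNA-Seq files of 4 libraries were analysed, 1 per condition. The deposited read counts are whole numbers of reads on the exons of each RefSeq transcript (assembly mm9), and the deposited RPKM values are, per the authors, those reads per kilobase of exon, scaled to the library's total of mapped reads, which the study lists and which was used in the intervals. Mapped reads were the output of the Illumina Analysis Pipeline. Its version and aligner settings, and the use of strand in counting, are not given in the sources used here. The submitters' processing notes also name bedtools 2.16 and SICER 1.1. RefSeq identifiers were matched to symbols with a table of GRCm38.p6 (97.8% of 29082 transcripts), and the transcript with the most reads was kept per gene. Exonic lengths were derived from the deposited counts and RPKM.

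Following the study, a gene was taken as expressed above 1 RPKM in either Ad-GFP library, and the cutoff was 2.5-fold on the deposited RPKM without a pseudocount. Intervals were exact binomial intervals of the 2 read counts (scipy 1.17.1), for differences of ratios normal approximations from the same counts. The interval code was tested on simulated data. edgeR 4.0.16 was used for TMM factors only, and no test across genes was run, since each condition had 1 library. Positions and overlaps come from GENCODE on NCBI37/mm9. Overlaps were taken on the coding GENCODE transcript nearest in length to the counted RefSeq transcript.

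Values per library are given for Hox genes with at least 50 reads in some library, and for those past the cutoff with at least 20 reads in the higher library. The other Hox genes are given by counts or read ranges, except Hoxb7, Hoxa11, Hoxc11, Hoxd3 and Hoxd9, named for their place beside others. From each related list, the 3 genes with the most reads and up to 5 past the cutoff with at least 50 reads are named. The Hox genes and the lists were chosen with earlier results of these data known. Of 39 Hox symbols 1, and of the cofactor list 1 gene, are not reported here. There were 12 alternative settings, 11 planned and 1 (removal of length and GC trends) chosen after seeing the data.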

Additional observations from a re-analysis of the deposited data

Results flagged for a closer look

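For 4 of the 25 expressed Hox genes the day 2 to day 0 ratio lay below equal in Ad-GFP cells and above equal in Ad-Cre cells. Their counting intervals did not reach 0 on either side, though the Ad-Cre interval of Hoxa3 began at 0.007. How many of all expressed genes met this rule was not computed, so the count has no background. The difference in log2 ratio (Ad-Cre minus Ad-GFP) was 2.46 for Hoxa5 (-0.39 and 2.07), 2.07 for Hoxc9 (-1.65 and 0.41), 2.00 for Hoxa7 (-0.88 and 1.11) and 0.92 for Hoxa3 (-0.58 and 0.34). With 1 library per condition the difference was not tested beyond counting error. The sign of the Ad-Cre ratio of Hoxc9 depended on a correction: it was 0.02 with the length trend removed and -0.09 with the length and GC trends removed. The other 3 genes kept both signs under TMM scaling, the sum of counts as library total and both trend corrections.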

How the results depend on the processing

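No paired analysis was possible because each condition had 1 library. Of 136 values of the counts and medians under 12 alternatives, 112 were labelled the same and 24 moved. For a count, the same meant equal to or within 1.5 times the reported count. For a median, it meant inside the median lower and upper bounds of the single genes' counting intervals. That band is set by single genes and is not the counting error of a median. Only a median could reverse in sign, and 0 did. The number of Hox genes over 2.5-fold higher in Ad-Cre cells at day 2 (5) was 8 with the sum of counts as library total, 9 with TMM, 8 with either trend correction, 3 with 1 RPKM added, 3 with the nearer interval bound past the cutoff, 11 at 2-fold and 1 at 4-fold. The number lower at day 2 (1) was 2 with a threshold of 0.5 RPKM, 2 at 2-fold, 0 at 4-fold, 2 with the length trend removed and 3 with the length and GC trends removed. At day 0 the number lower in Ad-Cre cells (2) was 0 at 4-fold, 0 with 1 RPKM added and 0 by the interval bound, and the number higher (0) was 1 at 2-fold. From day 0 to day 2 in Ad-Cre cells, the number higher (1) was 2 with the sum of counts and 3 at 2-fold, and the number lower (5) was 2 at 4-fold, 2 with 1 RPKM added and 2 by the interval bound. In Ad-GFP cells the number lower (10) was 4 at 4-fold and the number higher (0) was 2 at 2-fold. Apart from the fold cutoffs, the added 1 RPKM and the interval bound, whose own construction sets the count, the cause was not tested. TMM moved the median log2 ratio of all expressed genes from -0.16 to 0.02 for Ad-Cre over Ad-GFP at day 2 and from 0.15 to 0.05 for the day ratio of Ad-GFP cells, and the sum of counts moved it from -0.01 to 0.17 for the day ratio of Ad-Cre cells. Depth limits what can be said of the 14 Hox genes under 50 reads in every library.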
